A study of Mus musculus with 12 samples.

Results

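The 9 genes described here encode core proteins of double-strand break (DSB) repair. They were chosen by symbol (Atm, Nbn, Mre11a, Rad50, Brca1, Brca2, Xrcc5, Xrcc6 and Prkdc), with the higher level of Nbn in HD libraries in view, from 23238 gene symbols in the count tables. The RNAseq libraries came from striatum or cortex of R6/2 HD mice or of WT littermates that lack the transgene. R6/2 mice express exon 1 of human HTT, with a long CAG repeat, from a transgene. No mouse received a treatment. The pre-symptomatic age was 8 weeks and the post-symptomatic age was 13 weeks. Each HD group of 1 region and 1 age had 2 libraries, and each WT group had 1. It is not labelled how many mice were in a library, whether replicates were separate mice, or whether both regions of a number came from 1 mouse, so the p-values measure the spread between these libraries.

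A DSB severs both strands of DNA and is among the most harmful lesions in a cell. The MRN complex, made of the MRE11, RAD50 and NBN proteins, binds the broken ends and recruits and activates the kinase ATM, which starts DNA damage response (DDR) signaling. The ends are then joined directly, by non-homologous end joining (NHEJ), or copied from an intact sister sequence, by homologous recombination. In NHEJ the Ku heterodimer, encoded by Xrcc6 and Xrcc5, holds the ends and recruits DNA-PKcs, the kinase encoded by Prkdc. BRCA1 promotes trimming of the ends for recombination and BRCA2 acts at a later step of it. Recombination is largely restricted to dividing cells, and postmitotic neurons are known to rely mainly on NHEJ.

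The libraries were made with a kit that reads the 3′ ends of transcripts, and the deposited values were read counts per gene. Total counts lay between 8814386 and 12091201 per library. Levels below are CPM, counts brought to a common library size with edgeR's TMM factors. The ribosomal RNA precursor Rn45s took 10.5% to 15.2% of counts in the 8 HD libraries and 4.32% to 5.62% in the 4 WT libraries. Striatal projection neuron markers summed to 1394 to 8053 CPM in striatum and 136 to 408 CPM in cortex, and cortical excitatory neuron markers to 1828 to 7100 CPM in striatum and 5600 to 18057 CPM in cortex, so the striatal list separated the regions without overlap and the cortical list overlapped between them. Replicate 2 of pre-symptomatic HD striatum stood apart, with oligodendrocyte markers at 20038 CPM against 2312 to 7159 CPM in the other libraries, and with striatal markers at 2414 CPM against 7530 CPM in replicate 1. In HD mice replicate 1 was male and replicate 2 was female by Xist and Ddx3y. By the same genes, WT libraries were male at 8 weeks and female at 13 weeks. Age and sex thus changed together in the WT libraries, and so in every comparison that uses the WT change with age. In bulk tissue, fewer cells of a type and less RNA per cell cannot be told apart.

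All 9 genes passed edgeR's filter on low counts in the fits reported here. The lowest count of any of them was 6 reads, for Brca1 in pre-symptomatic HD cortex, and the highest was 466 reads, for Rad50. Brca1 ranged from 6 to 32 reads and Mre11a from 19 to 55 reads per library, so their levels carry the largest counting error. In the GENCODE M21 annotation of GRCm38, Nbn is at 15957925 to 15992589 on chromosome 4, Brca2 at 150522630 to 150570329 on chromosome 5 and Xrcc5 at 72307421 to 72394952 on chromosome 1, all on the plus strand. Brca1 is at 101488764 to 101551955 on chromosome 11, on the minus strand. Xrcc6 and Mre11a overlap a gene on the opposite strand that the tables also list, Desi1 and Ankrd49. Whether counting used the strand is not given in the sources used here, so reads of each pair could not be told apart with certainty.

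Because Brca2 and Xrcc5 had the highest log2 fold changes of the 9 genes after against before symptom onset in HD mice, as given later, their promoter windows are shown from 250 bases before to 50 bases after the annotated start (RefSeq, build GRCm38.p6). Promoter windows were matched for 6 of the 9 genes (Atm, Mre11a, Brca1, Brca2, Xrcc5 and Xrcc6), and not for Nbn, Rad50 and Prkdc. Both printed windows are on the plus strand, at chr5:150522371-150522670 for Brca2 and chr1:72307171-72307470 for Xrcc5. Capitals mark matches on either strand to 3 motifs. The E2F-type motif was searched as GCGGGAA, the motif known as the GC box was searched with the letters GGGCGG, and the last was the box named by its letters, CCAAT.
Brca2: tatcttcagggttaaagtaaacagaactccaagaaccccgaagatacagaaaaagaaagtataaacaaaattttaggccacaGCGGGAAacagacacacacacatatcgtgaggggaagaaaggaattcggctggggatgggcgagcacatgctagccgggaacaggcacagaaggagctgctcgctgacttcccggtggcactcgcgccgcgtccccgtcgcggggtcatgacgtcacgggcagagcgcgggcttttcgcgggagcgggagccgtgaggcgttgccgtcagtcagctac
Xrcc5: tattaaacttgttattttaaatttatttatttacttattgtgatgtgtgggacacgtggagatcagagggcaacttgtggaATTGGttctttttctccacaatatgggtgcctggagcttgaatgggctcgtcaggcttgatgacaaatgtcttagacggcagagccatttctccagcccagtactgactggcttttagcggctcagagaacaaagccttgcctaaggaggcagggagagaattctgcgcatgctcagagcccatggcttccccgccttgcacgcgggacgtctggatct
The Brca2 window held the E2F-type motif, as did those of Atm and Xrcc6, 3 of 6 windows, against 4.6% of all 32851 promoter windows of that length. The Xrcc5 window held the CCAAT box, as did 5 of the 6 windows and 37.4% of all windows. The GC box was in 3 of the 6 windows (Atm, Mre11a and Xrcc6) and in 35.7% of all windows. The end of a GC box can be the start of an E2F-type motif. The windows printed here have no motif in common, and a match describes letters only.

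Nbn encodes the MRN subunit that recruits ATM to the break. In striatum of pre-symptomatic HD mice it was at 16.3 and 17.9 CPM in replicates 1 and 2, and in post-symptomatic HD striatum at 18.4 and 15.5 CPM. Pre-symptomatic HD cortex held 15.9 CPM in both replicates and post-symptomatic HD cortex 21.8 and 14.6 CPM. The 4 WT libraries were at 8.63 CPM (striatum, 8 weeks), 7.15 CPM (striatum, 13 weeks), 8.50 CPM (cortex, 8 weeks) and 7.79 CPM (cortex, 13 weeks). Every HD library was thus above every WT library, without overlap. Among 14706 genes tested over all libraries, 3.63% showed that separation, and Nbn was the only one of the 9 genes to do so, the pattern for which it was chosen. Each HD library exceeded the WT library of its age and region by 1.87-fold to 2.07-fold before onset and by 1.87-fold to 2.80-fold after onset.

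The fitted log2 fold change of Nbn in HD against WT mice was 0.94 (SE 0.22) at the pre-symptomatic age and 1.23 (SE 0.23) at the post-symptomatic age, or 1.92-fold and 2.35-fold. These values chose the gene and are given without a test. They were 0.96 and 1.17 with the striatal WT library of that age left out, and 0.92 and 1.30 with the cortical WT library left out. With sex as a term they were 1.04 and 1.13. With Rn45s left out of the counts, they were 0.93 and 1.23. That fit takes out the reads of this transcript only, and the part of other differences between HD and WT libraries was not tested. Without replicate 2 of pre-symptomatic HD striatum the pre-symptomatic value was 0.90.

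Within HD mice, a comparison that the choice of Nbn did not use, Nbn did not pass the test for a change with symptom onset. Its log2 fold change after against before onset was 0.11 (SE 0.18, edgeR quasi-likelihood test, adjusted p = 0.781). The change with age in HD less that in WT mice was 0.29 (SE 0.31, adjusted p = 0.865). Striatum and cortex differed by -0.01 (SE 0.14, adjusted p = 0.958). The genes on either side of Nbn did not share its pattern in HD against WT mice. Decr1, which encodes a mitochondrial enzyme of fatty acid oxidation and ends 12418 bases before Nbn, had log2 fold changes of -0.50 before onset (SE 0.26, adjusted p = 0.438) and -0.24 after onset (SE 0.26, adjusted p = 0.659). Osgin2, 4532 bases after Nbn, had values of 0.04 (SE 0.20, adjusted p = 0.962) and -0.19 (SE 0.19, adjusted p = 0.628).

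The 5 genes whose levels most resembled those of Nbn over the 12 libraries, after the mean of each region was taken off, were Anp32a (Pearson r = 0.968), Shoc2 (0.967), Casc4 (0.965), Cby1 (0.962) and Kif2a (0.959), of 10770 genes with a mean of at least 5 CPM. The points share libraries and their scaling, and all HD libraries share a high share of Rn45s. Shoc2, a scaffold of RAS signaling, was at 74.3 to 95.5 CPM in HD and 39.8 to 49.4 CPM in WT libraries. Kif2a, a motor protein that depolymerizes microtubules, was at 76.5 to 102 CPM in HD and 57.2 to 71.0 CPM in WT libraries. Of the other DSB repair genes of the 9 with such a mean, Brca2 resembled Nbn most (r = 0.768), followed by Xrcc6 (0.572), Rad50 (0.564), Prkdc (0.278), Atm (0.134) and Xrcc5 (0.0674). Among the 10770 genes they ranked 596, 1463, 1503, 3088, 4022 and 4447, in that order.

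**Figure D1:**
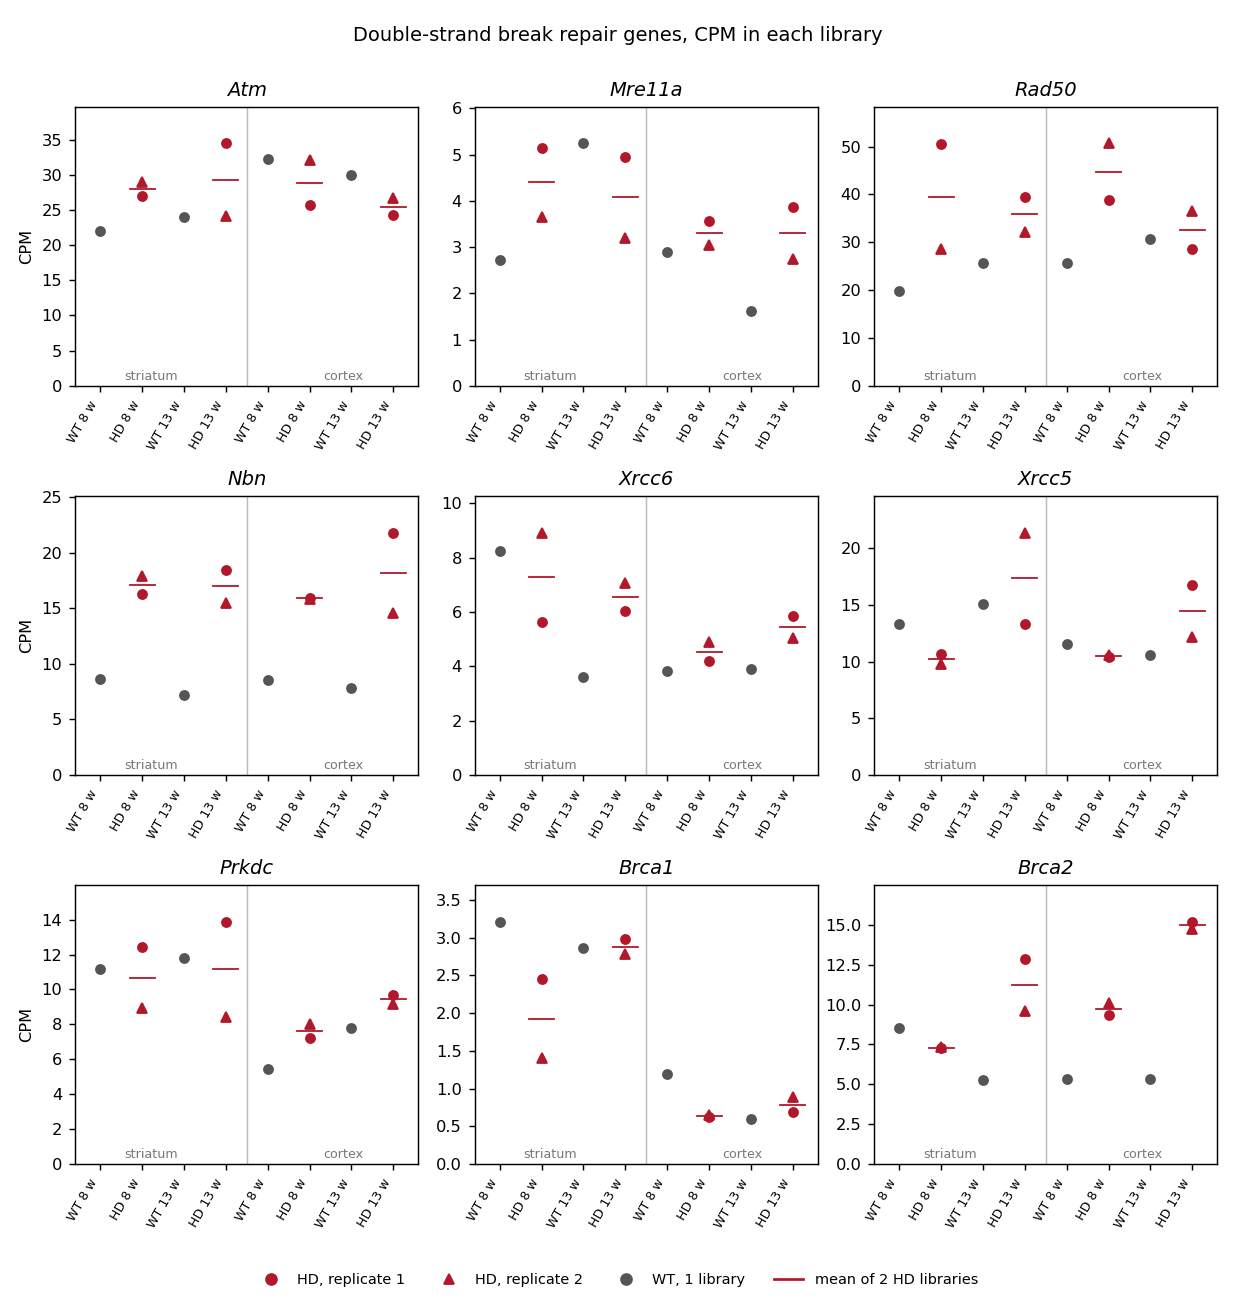
CPM (vertical axes, linear from 0) of the 9 genes in each library, by region, genotype and age in weeks (w); points are libraries and lines are means of 2 HD libraries. Nbn lies between 14.6 and 21.8 CPM in the HD libraries and between 7.15 and 8.63 CPM in the WT libraries, and Brca1 lies higher in all striatal than in all cortical libraries.

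Rad50 encodes the ATPase of the MRN complex that tethers the broken ends. Before onset, HD striatum held 50.6 and 28.5 CPM and HD cortex 38.8 and 50.7 CPM, against 19.9 CPM in WT striatum and 25.7 CPM in WT cortex. After onset, HD striatum held 39.5 and 32.2 CPM and HD cortex 28.5 and 36.5 CPM, against 25.7 and 30.6 CPM in the WT libraries. All 4 HD libraries were above the WT library of their region before onset, which 15.4% of 14706 genes showed, and 3 of 4 were after onset. The log2 fold change in HD against WT mice was 0.89 (SE 0.25) before and 0.28 (SE 0.24) after onset. Without replicate 2 of pre-symptomatic HD striatum, the lowest of the 4, the first value was 1.03. The 2 replicates of pre-symptomatic HD striatum differed by more than the difference between the HD means of the 2 ages. Neither the onset change (-0.29, SE 0.20, adjusted p = 0.444) nor the difference of the age change between HD and WT mice (-0.61, SE 0.33, adjusted p = 0.653) passed the edgeR test.

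Mre11a encodes the nuclease of the MRN complex. It was at 3.66 to 5.15 CPM in pre-symptomatic HD striatum and at 3.04 to 3.56 CPM in pre-symptomatic HD cortex, against 2.71 and 2.89 CPM in the WT libraries. After onset the HD libraries held 3.21 to 4.94 CPM in striatum and 2.74 to 3.86 CPM in cortex, against 5.24 CPM in WT striatum and 1.61 CPM in WT cortex. At this age the HD libraries were below WT in striatum and above WT in cortex, so the fitted value of 0.21 (SE 0.43) averages opposite directions, and it was 1.05 without the striatal and -0.38 without the cortical WT library. Before onset the value was 0.42 (SE 0.44). The onset change in HD mice was -0.04 (SE 0.32, adjusted p = 0.958) and the difference of the age change was -0.21 (SE 0.62, adjusted p = 0.968) by edgeR. Ankrd49, which overlaps its start, had log2 fold changes of 0.52 and 0.31 in HD against WT mice before and after onset (adjusted p = 0.362 and 0.499).

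Atm encodes the kinase that MRN activates. It was at 24.2 to 34.5 CPM in the 8 HD libraries and at 22 to 32.3 CPM in the 4 WT libraries, and the ranges overlapped. In HD against WT mice its log2 fold change was 0.07 (SE 0.21) before and 0.03 (SE 0.21) after onset, the value nearest to 0 of the 9 genes after onset. At both ages the HD libraries were above the WT library in striatum and below it in cortex. Neither the onset change (-0.05, SE 0.16, adjusted p = 0.907) nor the age difference (-0.05, SE 0.30, adjusted p = 0.983) nor the region difference (-0.09, SE 0.14, adjusted p = 0.700) passed the edgeR test.

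The genes of NHEJ followed. Xrcc6, for the Ku70 subunit, was at 6.06 and 7.06 CPM in post-symptomatic HD striatum and at 5.84 and 5.03 CPM in post-symptomatic HD cortex, above 3.62 and 3.89 CPM in the WT libraries. All 4 HD libraries were thus above the WT library of their region, which 21.4% of 14706 genes showed. Before onset the HD libraries held 5.62 and 8.93 CPM in striatum and 4.19 and 4.89 CPM in cortex, and the WT libraries 8.23 and 3.82 CPM. The log2 fold change in HD against WT mice was 0.65 (SE 0.34) after onset and 0.00 (SE 0.33) before. After onset it was 0.32 without the striatal and 1.02 without the cortical WT library. The onset change within HD mice was 0.06 (SE 0.26, adjusted p = 0.923), and the age difference was 0.64 (SE 0.47, adjusted p = 0.781 by edgeR). Desi1, which overlaps Xrcc6, was at -0.74 for the onset change in HD mice (SE 0.23, adjusted p = 0.0910) and did not pass.

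Xrcc5, for the Ku80 subunit, was at 10.7 and 9.79 CPM in pre-symptomatic HD striatum and at 10.4 and 10.5 CPM in pre-symptomatic HD cortex. After onset it was at 13.3 and 21.4 CPM in HD striatum and at 16.7 and 12.2 CPM in HD cortex. Every post-symptomatic HD library was above every pre-symptomatic HD library, which 4.93% of 14392 genes showed. The fitted ratio of 1.54-fold (log2 0.63, SE 0.21) was not past the adjusted threshold (edgeR, adjusted p = 0.115). In WT mice Xrcc5 was at 13.4 and 11.6 CPM at the younger age and at 15.1 and 10.6 CPM at the older age in striatum and cortex. The pre-symptomatic HD libraries were all below the WT library of their region (ratios 0.733 to 0.913), which 15.1% of 14706 genes showed, with a log2 fold change of -0.26 (SE 0.24), and 3 of 4 post-symptomatic HD libraries were above it, with a value of 0.32 (SE 0.25). The difference of the age change between HD and WT mice was 0.58 (SE 0.35, adjusted p = 0.693).

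Prkdc, for the DNA-PKcs kinase, was at 5.44 to 13.9 CPM over all libraries. In HD against WT mice its log2 fold change was 0.19 (SE 0.28) before and 0.10 (SE 0.28) after onset, and 3 of 4 HD libraries were above WT at each age. The onset change was 0.20 (SE 0.23, adjusted p = 0.661) and the age difference was -0.08 (SE 0.39, adjusted p = 0.978). By region it was at 8.44 to 13.9 CPM in striatum and 5.44 to 9.70 CPM in cortex, with a log2 difference of 0.51 (SE 0.19) and an adjusted p = 0.0724 by edgeR. The adjusted p was 0.0407 with DESeq2 and 0.0464 by edgeR with total counts in place of TMM factors, so that call depended on the tool and the scaling. With 1 library left out the log2 difference was 0.41 to 0.63.

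Brca2 encodes a mediator of homologous recombination, and its promoter is the first of the sequences above. Before onset it was at 7.26 and 7.32 CPM in HD striatum and at 9.32 and 10.1 CPM in HD cortex. After onset it was at 12.9 and 9.62 CPM in HD striatum and at 15.2 and 14.7 CPM in HD cortex. In each region the post-symptomatic libraries were above the pre-symptomatic ones without overlap, as for Xrcc5 and Brca1 of the 9 genes and 9.18% of 14392 genes. The fitted ratio was 1.55-fold (log2 0.64, SE 0.19), with an adjusted p = 0.0725 by edgeR and 0.0487 by DESeq2. It was 0.66 (SE 0.28, adjusted p = 0.366) in striatum and 0.61 (SE 0.27, adjusted p = 0.352) in cortex. Without replicate 2 of pre-symptomatic HD striatum the value over both regions was 0.64 (adjusted p = 0.0875).

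The WT libraries held Brca2 at 8.53 CPM (striatum) and 5.35 CPM (cortex) at 8 weeks, and at 5.24 and 5.33 CPM at 13 weeks. All 4 post-symptomatic HD libraries were above the WT library of their region, at 1.84-fold to 2.85-fold its level, and 21.4% of genes had all 4 above. Before onset the HD libraries were below WT in striatum and above WT in cortex. The log2 fold change in HD against WT mice was 1.30 (SE 0.29), or 2.46-fold, after onset and 0.27 (SE 0.28) before, given without a test. After onset it was 1.39 without the striatal and 1.20 without the cortical WT library. Before onset it was 0.82 without the striatal and -0.19 without the cortical WT library, so its sign rested on which WT library was used. The difference of the age change between HD and WT mice was 1.03 (SE 0.40, unadjusted p = 0.0231) and did not pass the edgeR test over all genes (adjusted p = 0.437). With sex as a term this difference was 0.95 (edgeR, adjusted p = 0.566).

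**Figure D2:**
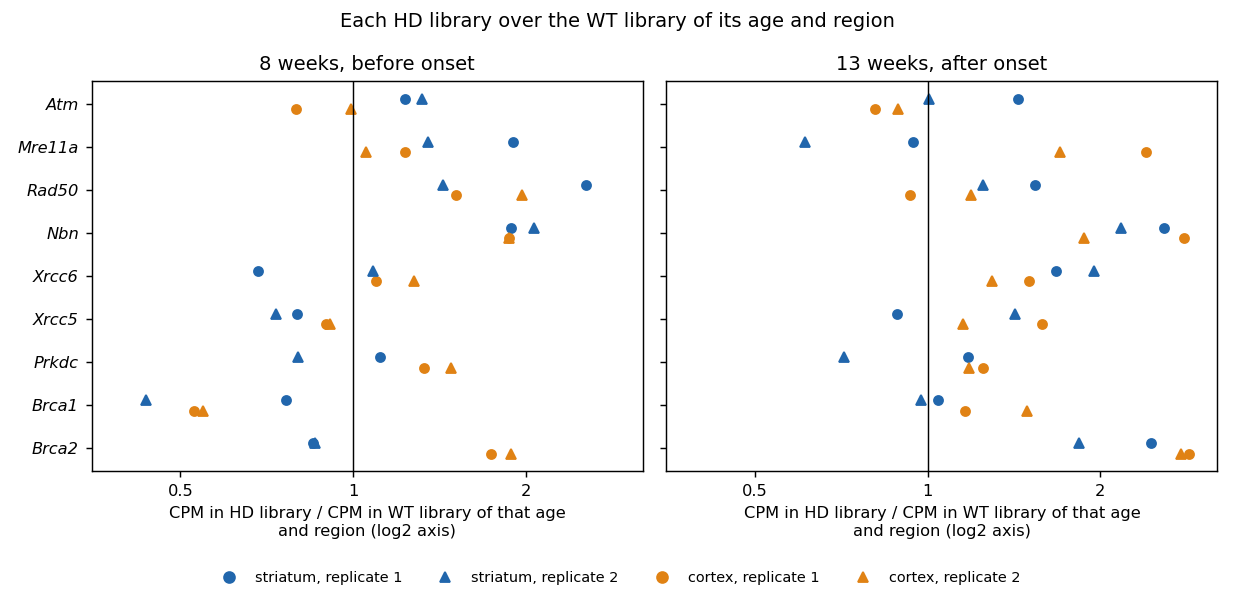
CPM of each HD library divided by CPM of the WT library of that age and region (log2 horizontal axis), for the 9 genes at 8 weeks (left) and 13 weeks (right). Nbn is at 1.87 or above in all HD libraries at both ages, whereas Brca2 is at 1.84 or above in all 4 at 13 weeks and from 0.851 to 1.89 at 8 weeks.

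Brca1 encodes a ubiquitin ligase that favors recombination over end joining. It was higher in striatum than in cortex, and this was the only region difference among the 9 genes to pass the test. Striatal HD libraries held 2.46 and 1.40 CPM before onset and 2.98 and 2.78 CPM after onset, and striatal WT libraries 3.21 and 2.86 CPM at 8 and 13 weeks. Cortical HD libraries held 0.628 and 0.652 CPM before onset and 0.687 and 0.883 CPM after onset, and cortical WT libraries 1.19 and 0.592 CPM. All 6 striatal libraries were thus above all 6 cortical libraries, which 2.67% of 14706 genes showed. The difference was 3.38-fold (log2 1.76, SE 0.35, edgeR, adjusted p = 0.00393), where 20.6% of 14706 genes were called, and 8.51% were called higher in striatum. With replicate 2 of pre-symptomatic HD striatum left out it was 1.86 (adjusted p = 0.00287). Dividing cell markers were at 4.17 to 26.5 CPM in striatum and 3.57 to 9.02 CPM in cortex when summed, 2 of these 6 genes were higher in striatum, and their part in the Brca1 difference was not tested.

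At 8 weeks all 4 HD libraries had less Brca1 than the WT library of their region (ratios 0.435 to 0.765), which 15.1% of 14706 genes showed, on 6 to 21 reads against 14 and 32 reads, and the log2 fold change was -0.82 (SE 0.51). At 13 weeks the value was 0.16 (SE 0.51) and 3 of 4 HD libraries were above WT. The onset change in HD mice was 0.47 (SE 0.48, adjusted p = 0.624) and the age difference was 0.98 (SE 0.73, adjusted p = 0.783).

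In HD against WT mice, 7.36% of all genes tested were past the adjusted threshold after onset and 2.1% before. Since that contrast was in view when the 9 genes were chosen, no count of them past it is given. The median log2 fold change of the 9 genes was 0.28 after and 0.19 before onset, against 0.01 and -0.01 over all genes tested. In HD mice after against before onset, none of the 9 passed, where 6.19% of 14392 genes did. An unadjusted p under 0.05 by edgeR was found for 2 of the 9 (Brca2 and Xrcc5) and for 3194 of the 14392 genes. DESeq2 called 1 of the 9 (Brca2). The median was 0.11, against 0.00 over all genes. By region, the values lay between -0.12 and 0.80 (striatum) and between -0.47 and 0.61 (cortex), and none passed, where 0.16% and 0.591% of genes did. The difference of the onset change between regions ran from -0.37 to 0.37 with SE of 0.33 to 1.02. No gene was called there by edgeR (0% of 14392, with 519 at an unadjusted p under 0.05), and DESeq2 called 16. In the difference of the age change between HD and WT mice, none of the 9 passed, where 0.116% of genes did. There 1 of the 9 had an unadjusted p under 0.05 by edgeR, as did 1312 of 14706 genes. Xrcc6 (log2 0.49, SE 0.22, adjusted p = 0.151), Mre11a (0.50, SE 0.29, adjusted p = 0.263), Xrcc5 (0.20, SE 0.16, adjusted p = 0.437), Rad50 (-0.11, SE 0.16, adjusted p = 0.663) and Brca2 (-0.18, SE 0.19, adjusted p = 0.558) did not pass between striatum and cortex.

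Scaling bore on the onset values. With total counts in place of TMM factors, the median of all genes in that comparison was 0.20 rather than 0.00. On that scale Brca2 was at 0.84 (adjusted p = 0.0245) and Xrcc5 at 0.82 (adjusted p = 0.0311). Relative to the median these were 0.64 and 0.62, as with TMM. Over all genes, 264 were called higher and 627 lower after onset with TMM, and 1210 higher and 405 lower with total counts. In HD against WT mice, 456 higher and 626 lower became 619 and 502 after onset, and 287 higher and 22 lower became 154 and 71 before onset, where the median of all genes shifted to -0.15 and Nbn was at 0.81, or 0.96 relative to that median. Striatal projection neuron markers summed to 1394 and 1426 CPM in HD striatum after onset and to 7530 and 2414 CPM before, and 4 of 9 tested were called lower over both regions and none higher (median log2 fold change -1.11). Cortical excitatory neuron markers summed to 6127 and 5600 CPM in HD cortex after onset and to 14011 and 15271 CPM before, and 1 of 8 was called lower and none higher (median -0.88). Markers of astrocytes were at 1747 to 2485 CPM after and 2860 to 4408 CPM before onset in HD mice when summed. Choroid plexus markers summed to 2986 CPM in replicate 2 of HD cortex after onset and to 67.0 to 110 CPM in the other HD libraries of that age. Before onset they summed to 940 CPM in replicate 2 of HD striatum and to 1.76 to 2.17 CPM in the other HD libraries. The part of any of these lists in the Brca2 and Xrcc5 values was not tested.

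**Figure D3:**
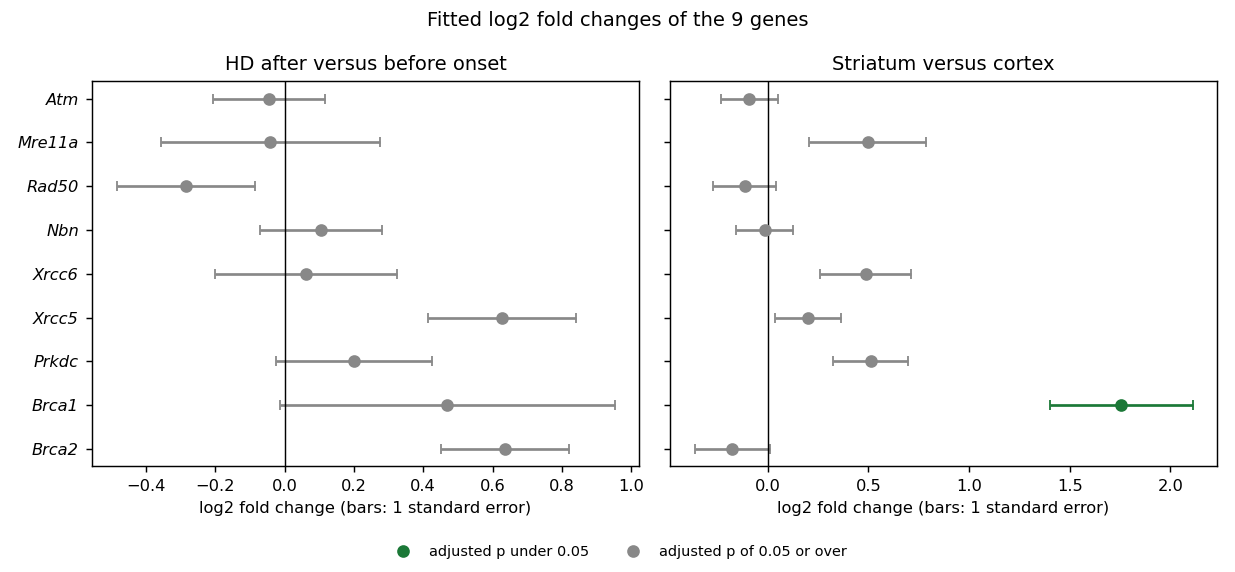
Fitted log2 fold changes (horizontal axes; bars are 1 standard error) of the 9 genes in HD mice after against before onset (left) and in striatum against cortex (right). Brca2 and Xrcc5 are at 0.64 and 0.63 in the left panel without passing the adjusted threshold, and Brca1 at 1.76 is the only gene past it in the right panel.

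A wider list of 59 other DSB repair genes placed these 9 in their pathways; 58 were in the tables and 54 were tested. After onset in HD mice, 1 rose and 1 fell, where 1.83% of all genes rose and 4.36% fell. Parp1, the poly(ADP-ribose) polymerase that detects strand breaks, fell by 0.64 on the log2 scale (SE 0.13, adjusted p = 0.0230). It was at 38.9 to 41.4 CPM in the 4 post-symptomatic and 52.9 to 73.9 CPM in the 4 pre-symptomatic HD libraries. Wrn, the helicase and exonuclease lost in Werner syndrome, rose by 1.0 (SE 0.22, adjusted p = 0.0277), from between 7.33 and 8.59 CPM before onset to between 11.3 and 20.2 CPM after it. Neither passed when any 1 of 5 HD libraries was left out (either replicate of post-symptomatic striatum or of pre-symptomatic cortex, or replicate 2 of post-symptomatic cortex), and 1 passed without replicate 1 of post-symptomatic cortex. The adjusted p reached 0.101 for Parp1 (without replicate 1 of pre-symptomatic HD cortex) and 0.113 for Wrn (without replicate 2 of post-symptomatic HD cortex). With voom and a random block, Wrn was at 0.96 (adjusted p = 0.0523) and 1 of the 54 genes passed. With total counts, Parp1 was at -0.43 (adjusted p = 0.0650), while 7 of the genes passed. The list's median was 0.06, against 0.00 over all genes.

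In HD against WT mice after onset, Rif1 was the only one of these 54 genes to pass with edgeR and TMM factors, where 7.36% of 14706 genes did. The count among the 54 was 5 with DESeq2, 3 with total counts or with at least 1 CPM in every library, and 2 with upper-quartile normalization or with sex as a term. Over all genes these settings called 1776, 1121, 1115, 1082 and 982, in that order. Rif1, which acts with 53BP1 to protect ends from trimming, was at 53.6 to 82.5 CPM in HD and 40.9 and 45.1 CPM in WT libraries (log2 0.69, SE 0.16, adjusted p = 0.0223). The adjusted p was 0.300 without the striatal and 0.155 without the cortical WT library, and 0.0582 and 0.0603 when replicate 1 of HD striatum or of HD cortex at 13 weeks was left out. None of the 54 passed before onset, where 2.1% of all genes did. Of the 54, 7 had an unadjusted p under 0.05 by edgeR, as did 2049 of all 14706 genes. At that age Rif1 was at 50 to 68.3 CPM in HD and 39.4 and 39.7 CPM in WT libraries (log2 0.52, SE 0.16, adjusted p = 0.145). Like Nbn, Rif1 was higher in every HD library than in every WT library, as was 1 other of the 54 genes (Uimc1), where 3.63% of all genes were. Xrcc4, the partner of DNA ligase IV in NHEJ, was at 3.88 to 12.2 CPM in HD and 1.95 to 4.42 CPM in WT libraries, with values of 1.32 after onset (SE 0.40, adjusted p = 0.0632) and 1.02 before (SE 0.39, adjusted p = 0.251). Mdc1, the adaptor that binds phosphorylated H2AX, had values of 0.77 (SE 0.28, adjusted p = 0.119) and 0.61 (SE 0.28, adjusted p = 0.363). The list's medians were 0.07 after and -0.03 before onset.

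Other members of the signaling chain that starts at MRN and ATM did not pass at either age. H2afx, which encodes the histone H2AX that ATM phosphorylates, had log2 fold changes in HD against WT mice of -0.34 after (adjusted p = 0.412) and -0.41 before onset (adjusted p = 0.446). These values average regions that differed. Striatal HD libraries were at 0.605 and 0.618 of the WT level after onset and at 0.543 and 0.558 before, each against 1 WT library. Cortical HD libraries were at 1.03 and 1.04 after onset and at 1.10 and 1.04 before. The regions were not tested apart. Trp53bp1, for 53BP1, had values of -0.06 (adjusted p = 0.861) and -0.13 (adjusted p = 0.747). Chek2, the checkpoint kinase downstream of ATM, had 4 to 41 reads per library and values of -0.60 (SE 0.63, adjusted p = 0.641) and 0.01 (SE 0.62, adjusted p = 0.999). Lig4, for DNA ligase IV, had values of 0.29 (adjusted p = 0.520) and 0.07 (adjusted p = 0.934).

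Between regions, 3 of the 54 tested genes of the wider list were higher in striatum, as Brca1 was, and 1 was lower. Of all 14706 genes tested, 1251 were called higher in striatum and 1773 lower. Lig3, the DNA ligase of alternative end joining, was at 17.0 to 25.5 CPM in striatum and 9.32 to 15.5 CPM in cortex (log2 0.80, SE 0.16, adjusted p = 0.00375). Rpa2, a subunit of the protein that coats single-stranded DNA, differed by 0.58 (SE 0.11, adjusted p = 0.00311), and Xrcc3, which acts in homologous recombination, by 0.93 (SE 0.30, adjusted p = 0.0427). Eme1, a subunit of a structure-specific nuclease, was at 24.3 to 36.1 CPM in striatum and 35.9 to 42.3 CPM in cortex (-0.41, SE 0.11, adjusted p = 0.0199). Xrcc3 did not pass in 9 of the 12 fits that left out 1 library (adjusted p up to 0.124, without replicate 1 of HD striatum at 13 weeks), and Eme1 did not pass when any 1 of the 4 WT libraries was left out (up to 0.0736). The list's median was 0.10, against 0.01 over all genes. None of the 54 passed for the difference of the age change between HD and WT mice or for the onset change by region.

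**Figure D4:**
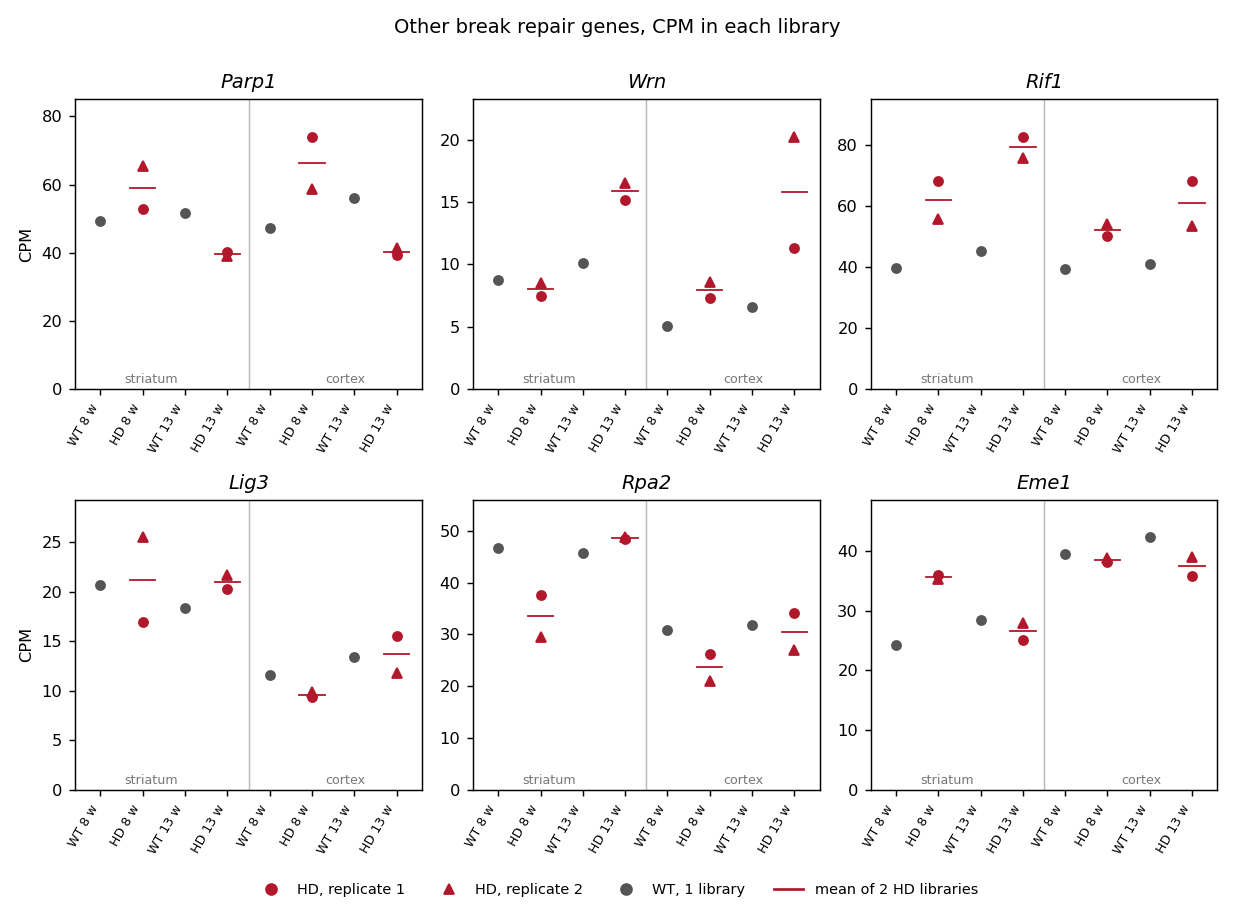
CPM (vertical axes, linear from 0) in each library of 6 of the 7 other DSB repair genes that passed a test, by region, genotype and age in weeks (w); points are libraries and lines are means of 2 HD libraries. Parp1 lies at 38.9 to 41.4 CPM in post-symptomatic and at 52.9 to 73.9 CPM in pre-symptomatic HD libraries, and Wrn at 11.3 to 20.2 CPM and at 7.33 to 8.59 CPM.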

How the data were processed

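The authors deposited 1 table of raw read counts per gene symbol for each of 12 libraries (Lexogen QuantSeq, total RNA). Per the labels, Bowtie2, bedtools and the build mm10 were used. Versions, annotation, counting rule and strand setting are not given in the sources used here. The tables held 23282 rows, 44 of them repeating a symbol. Totals were 8814386 to 12091201 counts. The standard errors cover counting error and the spread between libraries, without molecular identifiers to set duplicated reads apart.

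Groups came from the sample labels. The 9 members and all lists were chosen with earlier results of these data known. In R 4.3.3, counts were tested by quasi-likelihood in edgeR 4.0.16 (TMM factors, robust dispersions), keeping genes that filterByExpr passed at a minimum count of 10, with Benjamini-Hochberg adjustment over all genes tested and a threshold of 0.05. Symptom onset was fitted over the 8 HD libraries with region, and per region from group means. HD against WT, the difference of the age change and the regions were fitted over all 12 libraries with 4 groups of genotype and age and with region. Regions were treated as independent libraries. With 1 WT library for each region and age, no fit held variation between WT mice of 1 group.

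DESeq2 1.42.0 was an alternative, as were no filter, upper-quartile normalization, at least 1 CPM in every library, Rn45s left out, each library left out, a replicate block, voom (limma 3.58.1) with group and replicate number as a random block, and sex as a term. Total-count scaling was chosen after the data were seen. The wider list's genes were named when among the 5 of a direction with the largest change at an adjusted p under 0.05, beside 8 fixed genes, of which 7 are given (Trp53bp1, H2afx, Mdc1, Chek2, Lig4, Xrcc4 and Parp1) and 1 is not reported here. Likeness to Nbn used log2 of CPM with 0.5 added. Methods were tested on simulated data: of 200 genes changed by 1.5 on the log2 scale, edgeR recovered 153 of 200 among 14392 genes in the onset comparison and 119 of 200 among 14706 genes in HD against WT mice after onset, with 6.13% and 7.03% of calls false. Recovery was 40 of 200 for the difference of the age change, with 16.7% of calls false, and 156 of 200 between regions, with 3.11% false.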

Additional observations from a re-analysis of the deposited data

Results flagged for a closer look

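Parp1 was flagged because its HD libraries lay on opposite sides of WT at the 2 ages. All 4 HD libraries were below the WT library of their region after onset (ratios 0.702 to 0.776) and all 4 were above it before onset (ratios 1.08 to 1.56). Before onset, 15.4% of 14706 genes had all 4 above. The share of genes with all 4 below after onset was not counted. The difference of the age change between HD and WT mice was -0.81 on the log2 scale (SE 0.21, unadjusted p = 0.00223), which did not pass over all 14706 genes (edgeR, adjusted p = 0.203). With DESeq2 it was -0.82 and passed (adjusted p = 0.0368), the only 1 of 21 alternatives to do so. With sex as a term it was -0.81 and did not pass (edgeR, adjusted p = 0.307). The WT libraries were at 49.2 and 47.3 CPM at 8 weeks and at 51.8 and 56.0 CPM at 13 weeks in striatum and cortex.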

How the results depend on the processing

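Counts over all genes depended on the settings. With DESeq2 the genes called were 1610 for symptom onset over both regions, 438 (striatum), 542 (cortex), 16 for their difference, 1776 and 651 for HD against WT mice after and before onset, and 220 for the difference of the age change, against 891, 23, 85, 0, 1082, 309 and 17. Without a filter they were 163 (striatum), 251 (cortex), 1 for their difference and 30 for the age change. Upper-quartile normalization gave 45 in cortex and 5 for the age change. Total-count scaling gave 1615 over both regions, 48 in cortex and 8 for the age change, and sex as a term gave 0 for the age change. With 1 library left out the onset counts lay between 212 and 1516 (both regions), 0 and 1083 (striatum), 0 and 1202 (cortex) and 0 and 168 (their difference), and the others from 29 to 1834 and from 0 to 444 for HD against WT mice after and before onset, from 0 to 211 for the age change and from 2043 to 3709 between striatum and cortex. The 29 was without the WT striatum library of 13 weeks, and the 0 before onset without that of 8 weeks. A lone library was then assumed to vary like the other groups. The causes were not tested.

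Deviations of HD libraries of the same number correlated at 0.236 and 0.135 between striatum and cortex after and before onset. Between the ages they correlated at 0.329 in striatum and 0.0646 in cortex. All were positive, and they do not settle whether the regions of a number came from the same mouse. The labels do not say so, and the numbers were not taken as pairs in the main fits. With the replicate number as a block, 1030 genes were called for onset over both regions and 36 in striatum, and Brca1 differed between regions by 1.75 (adjusted p = 0.00763 by edgeR). The block took Nbn in HD against WT mice before onset to 1.04, a value given without a test, and it changed no call of a named gene that was tested. Values near 0 changed sign. Atm after onset was at 0.16 with total-count scaling and 0.0023 with upper-quartile normalization, and from -0.18 to 0.052 with 1 library left out. Mre11a was at 0.16 and 0.0043 in the same settings, and from -0.17 to 0.077 with 1 library left out. Leaving out 1 library took Nbn to between -0.035 and 0.20 and Xrcc6 to between -0.037 and 0.26 in that comparison. For the age change, total-count scaling gave 0.17 for Atm, 0.017 for Mre11a and 0.15 for Prkdc, upper-quartile normalization gave 0.010 for Atm, and leaving out 1 library gave -0.35 to 0.20, -0.81 to 0.61 and -0.43 to 0.20. Nbn between striatum and cortex was at 0.010 with DESeq2, 0.0068 with Rn45s left out, 0.018 with at least 1 CPM in every library, 0.061 with total-count scaling and 0.025 with upper-quartile normalization, and from -0.074 to 0.078 with 1 library left out. The filter of 1 CPM in every library left out Brca1, which was below 1 CPM in 5 of the 6 cortical libraries, so it has no value there. Brca1 passed between regions in all of its other 18 alternatives, at 1.65 to 1.86. Depth limits Brca1, Mre11a and Chek2 most.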
